A study of Mus musculus with 24 samples.

Results

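Hippocampal RNA of 24 mice was examined for 9 genes of the glucocorticoid response: the receptor genes *Nr3c1* and *Nr3c2*, and *Fkbp5*, *Tsc22d3*, *Sgk1*, *Zbtb16*, *Plin4*, *Errfi1* and *Map3k6*. They were found by symbol among the 55385 gene identifiers of the count tables, with 1 identifier each. The first 8 are known receptor genes or receptor targets. All 9 were chosen with earlier results of these data known, so their counts and p-values are not independent of that choice. *Map3k6* was picked by its rise under rapamycin, so its rapamycin values are given as a description, with no test.

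All mice carried *Tsc1* fl/fl and received tamoxifen for 4 days. In *Tsc1-Cre+* mice a *Camk2a*-CreERT2 transgene removes *Tsc1* from CAMK2A-expressing neurons, and *Tsc1-Cre-* littermates without the transgene were the controls. There were 4 mice in each of 6 groups: *Tsc1-Cre-* taken on day 8, *Tsc1-Cre+* taken on day 4, 6, 8 or 13, and the group *Tsc1-Cre+*-Rap 4, given 10 mg/kg rapamycin daily from day 4 and taken on day 13. Both sexes were used, at 16 to 22 weeks of age. Days were counted from the start of tamoxifen, so the day 4 mice were also those closest to the tamoxifen injections. The time since tamoxifen and the time since gene deletion cannot be told apart, and neither can rapamycin and its daily injections. Animal numbers fell into series. The controls shared their 2 series with the day 8 mice alone, and elsewhere condition and cohort cannot be told apart either.

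*Tsc1* was lower in every *Tsc1-Cre+* mouse, at 57.4 to 81.7 CPM (a gene's reads scaled to the library's total), than in the controls at 103 to 109. The libraries held 28208561 to 126435936 counts (median 55582027). Levels are given as CPM, scaled with trimmed-mean (TMM) factors over all 24 mice. In hippocampal homogenate a lower level can mean fewer cells of a type or less RNA per cell, which cannot be told apart here.

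Glucocorticoids released by the adrenal gland bind 2 related nuclear receptors in the hippocampus, the glucocorticoid receptor (*Nr3c1*) and the mineralocorticoid receptor (*Nr3c2*), which has the higher affinity for corticosterone. Without hormone the glucocorticoid receptor is held in the cytoplasm by chaperones. With hormone it moves to the nucleus and binds DNA at glucocorticoid response elements, in the classical form an inverted repeat of 2 half-sites. Targets such as *Fkbp5* and *Tsc22d3* are widely used as readouts of receptor activity in brain.

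The promoter sequences of RefSeq (GRCm38.p6) were searched for the half-sites AGAACA and TGTTCT, which are the reverse complement of each other, in the 250 bases before each annotated start. Of the 9 genes, 7 were covered, with 15 windows, and no window was searched for *Zbtb16* and *Nr3c1*. A half-site was present in 4 of these 15 windows and in 16.1% of all 32851 windows. The full inverted repeat, AGAACA followed after 3 bases by TGTTCT, was present in 3 of the 32851 windows, and 1 of the 3 belonged to *Sgk1*, at a start within the annotated span of the gene. Windows of *Sgk1* and *Tsc22d3* with a match, and of *Plin4* and *Map3k6*, the genes with the largest fold changes, are shown 5′ to 3′ on the gene's strand, without annotated exon bases and with half-sites in capitals.
Sgk1, chr10:21993640-21993889, plus strand: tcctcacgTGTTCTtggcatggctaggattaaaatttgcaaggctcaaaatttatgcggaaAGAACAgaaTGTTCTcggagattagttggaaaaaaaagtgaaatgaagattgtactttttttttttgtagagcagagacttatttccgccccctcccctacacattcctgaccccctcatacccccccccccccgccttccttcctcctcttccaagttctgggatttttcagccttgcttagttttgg
Tsc22d3, chrX:140600660-140600772, minus strand: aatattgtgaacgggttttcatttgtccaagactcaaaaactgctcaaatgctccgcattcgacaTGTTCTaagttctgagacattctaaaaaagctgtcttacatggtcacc
Plin4, chr17:56109804-56110032, minus strand: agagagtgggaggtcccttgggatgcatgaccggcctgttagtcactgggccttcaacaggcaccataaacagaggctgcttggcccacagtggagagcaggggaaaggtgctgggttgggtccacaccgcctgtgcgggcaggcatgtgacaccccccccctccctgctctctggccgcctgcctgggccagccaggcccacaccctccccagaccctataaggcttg
Map3k6, chr4:133240568-133240817, plus strand: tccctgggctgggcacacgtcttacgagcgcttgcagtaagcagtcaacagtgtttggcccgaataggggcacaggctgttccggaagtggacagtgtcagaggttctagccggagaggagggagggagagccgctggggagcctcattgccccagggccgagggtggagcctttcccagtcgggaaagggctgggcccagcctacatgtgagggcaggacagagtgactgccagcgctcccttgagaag
In *Sgk1* the repeat began 189 bases before the start, and a further half-site began 242 bases before it. In *Tsc22d3* a single half-site began 185 bases before the start. The other windows of *Sgk1* held a half-site in 2 of 5, and those of *Plin4*, *Map3k6*, *Fkbp5*, *Errfi1* and *Nr3c2* in none, which says only that these letters are not in these windows.

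Several target genes were higher than in the controls on day 4, overlapped them on day 6 and day 8, and were higher again on day 13 and under rapamycin. *Plin4* and *Sgk1* showed this most clearly, each with day 4, day 13 and rapamycin mice entirely above the controls and with day 6 levels at 1.04-fold and 1.05-fold of theirs. *Nr3c1* ran the other way, with all 20 *Tsc1-Cre+* mice below the lowest control. The share of all genes that part these mice from the controls was not computed. A difference among the 6 groups was found for all 8 genes other than *Map3k6*, with adjusted p-values from 2.84e-07 for *Sgk1* to 0.0271 for *Nr3c2* (edgeR quasi-likelihood F test), where 41.9% of all genes tested passed.

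**Figure D1:**
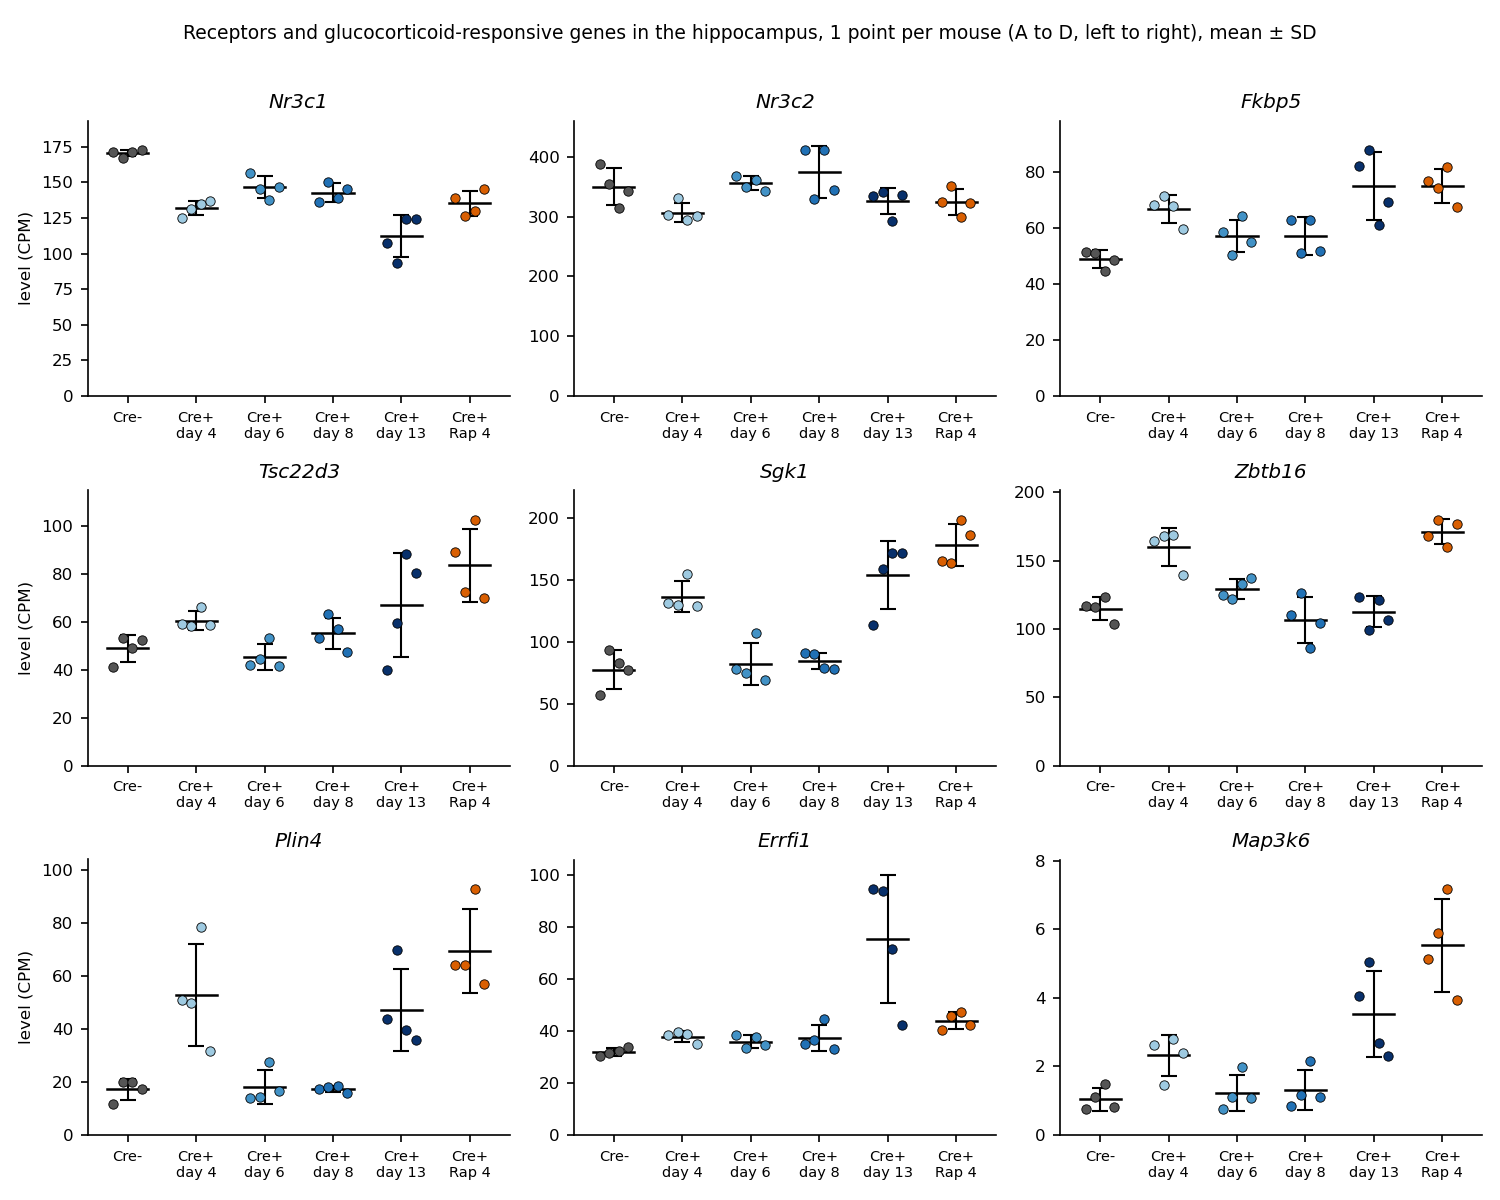
Level of each gene in CPM in the 6 groups, 1 panel per gene, with 1 point per mouse (A to D from left to right), the group mean as a line and the SD as bars (n = 4). *Sgk1* and *Plin4* are high on day 4, day 13 and under rapamycin (*Tsc1-Cre+*-Rap 4), and *Nr3c1* is lower than the controls in every other group.

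Each group was compared with the controls by the quasi-likelihood test of edgeR, with adjustment over all genes tested, and the word called is kept for genes that passed both thresholds, 0.05 for the adjusted p and 0.5 for the size of the log2 fold change. On day 4, 3 of the 9 genes were called, all higher (*Plin4*, *Map3k6* and *Sgk1*), against 0.340% of all genes. *Map3k6* was picked on a rise against these same controls, so its calls are not independent of that choice. Without it, 2 of 8 were called, and these 8 too were chosen with earlier results of these data known. Without the fold minimum 8 of the 9 passed, *Map3k6* among them, against 4.16% of all genes. The mice of the groups did not overlap for 7 genes, 6 of them above the controls (5.97% of all genes) and *Nr3c1* below them (5.72%). *Nr3c2* did not pass, with a log2 fold change of -0.19 ± 0.06 (SE) and an adjusted p of 0.108.

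None of the 9 genes was called on day 6 (1.32% of all genes called) or on day 8 (3.99%). At an unadjusted p under 0.05 there were 4 on day 6 (24.2% of all genes) and 3 on day 8 (28.9%), and DESeq2 called 0 on both days. Only *Nr3c1* passed the adjusted p without the fold minimum, where 10.1% of all genes did so on day 6 and 13.3% on day 8. The log2 fold changes of the 7 targets ranged from -0.12 for *Tsc22d3* to 0.23 for *Map3k6* on day 6, and from -0.12 for *Zbtb16* to 0.32 for *Map3k6* on day 8. Each of these ranges overlapped that of the controls.

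On day 13, 5 genes were called higher (*Map3k6*, *Plin4*, *Errfi1*, *Sgk1* and *Fkbp5*), against 8.40% of all genes, and *Nr3c1* was called lower, against 8.06%. Without *Map3k6*, 4 of 8 were called higher. All 5 genes called higher stood above the controls in every mouse, as did 17.1% of all genes. *Tsc22d3*, *Zbtb16* and *Nr3c2* were not called. Under rapamycin, 5 of the 8 genes tested were called higher (*Plin4*, *Sgk1*, *Tsc22d3*, *Fkbp5* and *Zbtb16*), where 0.372% of all genes were higher and 1.04% lower. *Errfi1* and *Nr3c1* passed the adjusted p but not the fold minimum. *Errfi1* and the 5 called genes, 6 of the 8, stood above the controls in every mouse, against 5.70% of all genes, and *Nr3c1* stood below them.

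**Figure D2:**
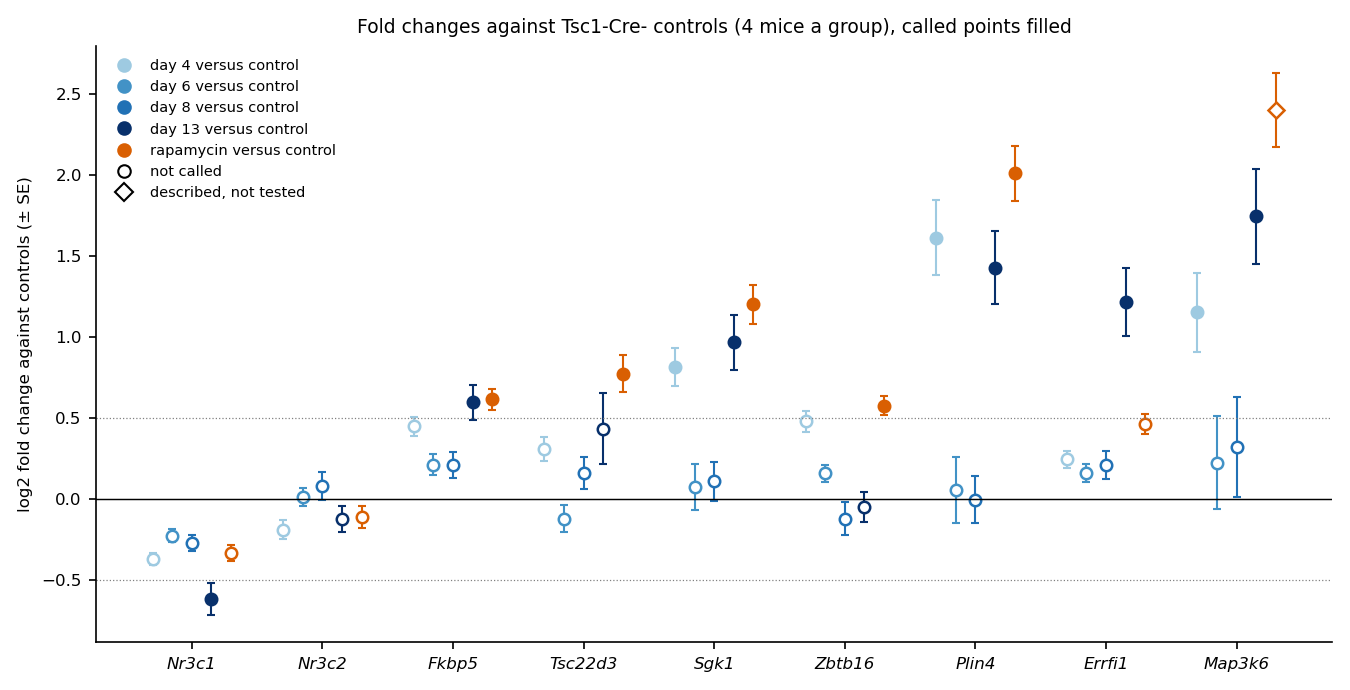
Log2 fold change of each gene against the 4 control mice, with the SE as bars, for day 4, 6, 8 and 13 and for the rapamycin mice. Filled points were called, open points were not, and the diamond marks *Map3k6* under rapamycin, which was not tested. Day 6 and day 8 points of the 7 targets lie between -0.12 and 0.32.

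Among the receptors, *Nr3c1* (ENSMUSG00000024431.15, chr18:39410545-39519421 of GRCm38, minus strand) encodes the glucocorticoid receptor. Control mice held a narrow range of 171, 167, 171 and 173 CPM. Day 4 mice were at 125, 131, 135 and 137, day 6 mice at 157, 145, 138 and 147, and day 8 mice at 136, 150.5, 139 and 146. In each of these 3 groups the highest mouse was below the lowest control. Fitted log2 fold changes were -0.37 ± 0.04 on day 4 (adjusted p = 0.000383), -0.23 ± 0.04 on day 6 (0.00317) and -0.27 ± 0.05 on day 8 (0.00552), none of which reached the fold minimum. On day 13 the mice stood at 108, 93.7, 125 and 124 CPM, below every rapamycin mouse at 139, 127, 130.1 and 145. *Nr3c1* thus fell by 0.62 ± 0.10 on the log2 scale on day 13 (0.00265), and the rapamycin value of -0.33 ± 0.05 (0.00377) did not reach the fold minimum. Rapamycin and day 13 mice, taken on the same day, did not overlap, but the difference of 0.27 ± 0.11 did not pass the test (adjusted p = 0.0737).

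*Nr3c2* (ENSMUSG00000031618.13, chr8:76899442-77245012, plus strand) encodes the mineralocorticoid receptor and overlaps short annotated genes on both strands, so a small part of its counts is uncertain. It had the highest level per kilobase of exon of the 9 genes in the controls, at 54.1 ± 4.74 CPM per kb (SD, n = 4), against 22.2 ± 0.304 for *Nr3c1*. Its levels were 389, 355, 315 and 342 CPM in the controls and 302, 331, 294 and 301 on day 4. Across all 24 mice it spanned 293 to 411 CPM, a 1.402-fold range and the smallest of the 9 genes. Neighbouring groups in the order of its means (day 4, rapamycin, day 13, controls, day 6, day 8) all overlapped, and none was called against the controls.

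*Fkbp5* (ENSMUSG00000024222.17, chr17:28399094-28517527, minus strand) encodes a co-chaperone that lowers the receptor's affinity for hormone and closes a feedback loop. Annotated genes overlap it on the same strand. Controls were at 51.5, 51.1, 44.7 and 48.4 CPM, and day 4 mice at 68.3, 71.4, 67.6 and 59.5, with no overlap. The log2 fold change of 0.45 ± 0.06 on day 4 passed the adjusted p (0.00214) but not the fold minimum. Day 6 mice at 58.5, 50.5, 64.1 and 55.0 and day 8 mice at 62.8, 50.9, 62.9 and 51.7 reached into the control range. On day 13 *Fkbp5* rose 1.51-fold (0.60 ± 0.11, adjusted p = 0.00433), with mice at 82.1, 87.8, 61.1 and 69.2 CPM. Under rapamycin the mice were closer together, at 76.7, 74.1, 81.5 and 67.3 CPM, and the rise was 1.53-fold (0.62 ± 0.06, 0.000381).

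*Tsc22d3* (ENSMUSG00000031431.13, chrX:140539528-140600659, minus strand), or GILZ, is a leucine zipper protein that mediates anti-inflammatory effects of glucocorticoids. Its 4 control mice were at 41.0, 53.3, 48.9 and 52.4 CPM, day 4 mice at 58.9, 58.2, 66.2 and 58.7, and rapamycin mice at 89.2, 72.6, 103 and 69.99. Day 4 and rapamycin mice were all above the highest control. The log2 fold change on day 4, 0.31 ± 0.07, was under the fold minimum (adjusted p = 0.0371), and under rapamycin *Tsc22d3* rose 1.71-fold (0.77 ± 0.11, 0.00327). Day 13 had the widest spread, with mouse A at 39.7, below every control, B at 59.4, C at 88.4 and D at 80.4 CPM. The day 13 value of 0.43 ± 0.22 did not pass (adjusted p = 0.166). Without mouse A of day 13 it was called, at 0.62 (adjusted p = 0.0197), and with the level of *Xist*, which parts male from female mice, as a covariate it was called at 0.57 (0.0159). Mice C and D of day 13, the highest for *Tsc22d3*, were the 2 of that group with high *Xist* and also those with the smallest libraries.

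*Sgk1* (ENSMUSG00000019970.15, chr10:21882184-21999903, plus strand) encodes a serine/threonine kinase that regulates ion channels and transporters and is a classical target of both receptors. Controls were at 56.9, 93.5, 83.2 and 77.2 CPM and day 4 mice at 131, 129.9, 155 and 129. Day 6 mice fell back to 78.4, 75.0, 107 and 69.0, and day 8 mice were at 90.8, 89.9, 79.2 and 78.4. Every day 4 mouse was higher than every control, day 6 and day 8 mouse. Day 13 mice stood at 113, 159, 172 and 172 CPM and rapamycin mice at 165, 164, 199 and 186, again above all controls. The rises against the controls were 1.76-fold on day 4 (0.81 ± 0.12, adjusted p = 0.00357), 1.957-fold on day 13 (0.97 ± 0.17, 0.00397) and 2.30-fold under rapamycin (1.202 ± 0.12, 0.000314). In the order of the means, the groups neighbouring each other overlapped except at the step from day 8 to day 4.

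*Zbtb16* (ENSMUSG00000066687.5, chr9:48654297-48836222, minus strand), or PLZF, is a transcriptional repressor with a strong glucocorticoid response in many cell types. It shared the day 4 and rapamycin pattern but not that of day 13. Controls were at 117, 116, 123 and 103 CPM, day 4 mice at 164, 168, 168 and 139, and rapamycin mice at 168, 180.0, 159.6 and 177. Day 13 mice, at 123, 99.3, 121 and 107, overlapped the controls, with mouse B below all of them. Day 6 mice, at 124, 122, 133 and 137, and day 8 mice, at 110.2, 126.04, 85.7 and 104, overlapped the controls too. *Zbtb16* rose 1.49-fold under rapamycin (0.58 ± 0.06, adjusted p = 0.000381), and the day 4 value of 0.48 ± 0.06 (0.00261) was just under the fold minimum. On day 13 the log2 fold change was -0.05 ± 0.09 (0.718). Against day 13, rapamycin mice were 1.53-fold higher with no overlap (0.61 ± 0.09, adjusted p = 0.00134).

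*Plin4* (ENSMUSG00000002831.14, chr17:56100591-56109803, minus strand) encodes perilipin 4, a coat protein of lipid droplets, and overlaps *Hdgfl2* on the other strand. Control mice had 11.7, 19.8, 20.1 and 17.5 CPM, day 6 mice 13.9, 14.3, 27.6 and 16.6, and day 8 mice 17.3, 17.996, 18.5 and 15.8. Day 4 mice, at 51.2, 49.996, 78.5 and 31.7, were all above these 3 groups. So were day 13 mice at 43.6, 69.9, 39.5 and 35.8 and rapamycin mice at 64.4, 64.1, 92.9 and 57.0. Rises were 3.06-fold on day 4 (1.61 ± 0.23, adjusted p = 0.00343), 2.69-fold on day 13 (1.43 ± 0.23, 0.00253) and 4.03-fold under rapamycin (2.01 ± 0.17, 7.26e-05). This rapamycin rise was the largest of the 8 genes tested.

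*Errfi1* (ENSMUSG00000028967.10, chr4:150853919-150868892, plus strand) encodes MIG6, a feedback inhibitor of EGF receptor signaling, and overlaps 1700045H11Rik on the other strand. Its strongest rise was on day 13. The 4 controls were at 30.3, 31.5, 32.2 and 33.9 CPM and day 4 mice at 38.4, 39.7, 38.8 and 34.9. Day 6 and day 8 mice together ranged from 33.1 to 44.8 and overlapped the controls. Day 13 mice ranged widely, at 94.7, 93.8, 71.6 and 42.2, while rapamycin mice were at 40.3, 46.0, 47.5 and 42.3. All day 4, day 13 and rapamycin mice were above the controls. The day 4 value of 0.25 ± 0.05 passed the adjusted p (0.0252) but not the fold minimum. *Errfi1* rose 2.32-fold on day 13 (1.22 ± 0.21, adjusted p = 0.00366), and the rapamycin value was 0.46 ± 0.06 (0.00162), under the fold minimum. It fell by 0.77 ± 0.21 on the log2 scale from day 13 to rapamycin (adjusted p = 0.0197), although mouse D of day 13 lay within the rapamycin range. Without mouse A of day 13, or mouse A or D of the rapamycin group, this call was lost (-0.65, -0.73 and -0.75, adjusted p 0.0510 to 0.0586). The summed level of 6 immediate early genes of neuronal activity was 693, 432, 1074 and 99.99 CPM in day 13 mice A to D, and mouse D was lowest for both. Its part in the *Errfi1* values was not tested.

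*Map3k6* (ENSMUSG00000028862.6, chr4:133240818-133252929, plus strand) encodes a kinase of the ASK family. It was the least abundant of the 9 genes, with 38 to 591 counts per mouse and 0.226 ± 0.0716 CPM per kb of exon in the controls. Rapamycin mice, the group on which it was picked, had 5.14, 5.89, 7.18 and 3.94 CPM against 0.752, 1.10, 1.48 and 0.824 in the controls, a 5.29-fold difference. Day 13 mice were at 4.06, 5.04, 2.699 and 2.31, also above all controls, and day 4 mice at 2.63, 1.46, 2.81 and 2.39, of which B overlapped control C. The same controls entered these comparisons, so they are not independent of how the gene was picked. *Map3k6* rose 3.35-fold on day 13 (1.74 ± 0.29, adjusted p = 0.00337) and 2.22-fold on day 4 (1.15 ± 0.24, 0.0227). On day 4 DESeq2 gave it no adjusted p, and the edgeR call was lost in a fit of all 24 mice (adjusted p = 0.175), with *Xist* as a covariate (0.0514), and without control D (0.0759), day 4 mouse A (0.0604) or day 4 mouse C (0.0656). Day 6 mice, at 0.746, 1.115, 1.98 and 1.07, and day 8 mice, at 0.835, 1.18, 2.16 and 1.116, overlapped the controls.

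The step from day 4 to day 6 was tested directly, as a comparison added after the data were seen and with none of the control mice. *Plin4* fell by 1.56 ± 0.24 (adjusted p = 0.00286) and *Sgk1* by 0.74 ± 0.11 (0.00171) on the log2 scale, where 0.357% of all genes were called lower. *Plin4*, *Sgk1*, *Tsc22d3* and *Zbtb16* had every day 6 mouse below every day 4 mouse, against 4.51% of all genes. *Tsc22d3* (-0.43 ± 0.07, 0.00351) and *Zbtb16* (-0.32 ± 0.06, 0.00777) passed the adjusted p only. *Nr3c2* did so in the other direction, higher on day 6 by 0.20 ± 0.04 (0.0148). All day 6 mice were above all day 4 mice for *Nr3c2* and for *Nr3c1* (0.14 ± 0.04, 0.0937), against 7.52% of all genes. *Map3k6* at -0.93 ± 0.26 (0.0595) and *Fkbp5* at -0.24 ± 0.07 (0.0603) did not pass. *Map3k6* was called with DESeq2, without the filter on low counts and with *Xist* as a covariate.

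From day 8 to day 13, edgeR called 0 of the 9 genes and 0.000% of all genes, in a comparison also added after the data were seen. *Plin4*, *Sgk1* and *Map3k6* were higher in every day 13 mouse than in every day 8 mouse. Their log2 differences were 1.43 ± 0.18, 0.85 ± 0.13 and 1.41 ± 0.33, with adjusted p-values of 0.231, 0.231 and 0.303. *Nr3c1* was lower in every day 13 mouse than in every day 8 mouse, at -0.36 ± 0.11 (adjusted p = 0.303). The share of all genes whose ranges lay apart was not computed for this comparison, so these separations cannot be weighed against it. At an unadjusted p under 0.05 there were 7 of the 9 genes, against 14.1% of all genes. DESeq2 on the same mice called 4 (*Sgk1*, *Plin4*, *Errfi1* and *Map3k6*) and 0.569% of all genes. With edgeR fitted on all 24 mice the same 4 were called, and 4.95% of all genes.

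Between rapamycin and untreated mice of day 13, 1 of the 8 genes tested was called higher (*Zbtb16*) and 1 lower (*Errfi1*), as given above. These counts were near the shares of all genes, 9.94% called higher and 11.2% lower. *Plin4* was higher by 0.57 ± 0.21 and missed the threshold (adjusted p = 0.0614). It passed with DESeq2 (0.0467), with no filter on low counts (0.0471), with *Xist* as a covariate (0.0229), with offsets for GC content (0.0347) and without day 13 mouse B (0.00713). *Sgk1* differed by 0.22 ± 0.13 (0.224), *Tsc22d3* by 0.33 ± 0.23 (0.298) and *Fkbp5* by 0.01 ± 0.11 (0.963). *Map3k6* was 1.57-fold higher in the rapamycin mice, and the groups overlapped.

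Rapamycin mice were also set against day 4 mice, from the day on which the treatment began, in a comparison likewise added after the data were seen. None of the 8 genes tested was called, where 1.95% of all genes were (0.993% higher). An unadjusted p under 0.05 was reached by 4 genes, against 25.7% of all genes, and DESeq2 called 0. All 8 log2 differences were above 0, from 0.04 ± 0.05 for *Nr3c1* to 0.47 ± 0.10 for *Tsc22d3* (adjusted p = 0.0134). *Tsc22d3*, *Sgk1* (0.39 ± 0.07, 0.00722) and *Errfi1* (0.22 ± 0.06, 0.0514) were higher in every rapamycin mouse than in every day 4 mouse, against 8.82% of all genes.

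In some groups 1 mouse was highest or lowest for most targets. Mouse C was the highest of the rapamycin group for 6 of the 7 targets and the highest of the day 4 group and of the day 6 group for 5 of 7 each. Day 4 mouse D was the lowest of its group for 5 of 7, and control mouse A for 5 of 7. On day 13 the highest levels were spread over all 4 mice, with 2, 3, 1 and 1 targets in mice A to D, and likewise in the controls, with 1, 2, 3 and 1. A letter stands for another animal in every group. Sex was not given per mouse, but *Xist* was at most 3.18 CPM or at least 636 CPM, and was high in 3 controls, 1 day 4 mouse, 1 day 6 mouse, 3 day 8 mice, 2 day 13 mice and 2 rapamycin mice. Day 4 mouse D was the only one of its group with high *Xist*, and control mouse A the only one of its group with low *Xist*. With *Xist* as a covariate, *Plin4* and *Sgk1* were still called on day 4, and its part in the spread between mice was not tested further. As a description over the 24 mice, deviations from the group mean correlated between *Tsc22d3* and *Sgk1* (Pearson r = 0.75), between *Plin4* and *Map3k6* (0.67) and between *Sgk1* and *Plin4* (0.56). Of the 21 pairs of targets 13 had a positive r and 8 a negative one, down to -0.38 for *Tsc22d3* and *Errfi1*. *Fkbp5* and *Nr3c1* deviated in opposite directions (r = -0.74). The points share libraries and the scaling of each mouse.

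**Figure D3:**
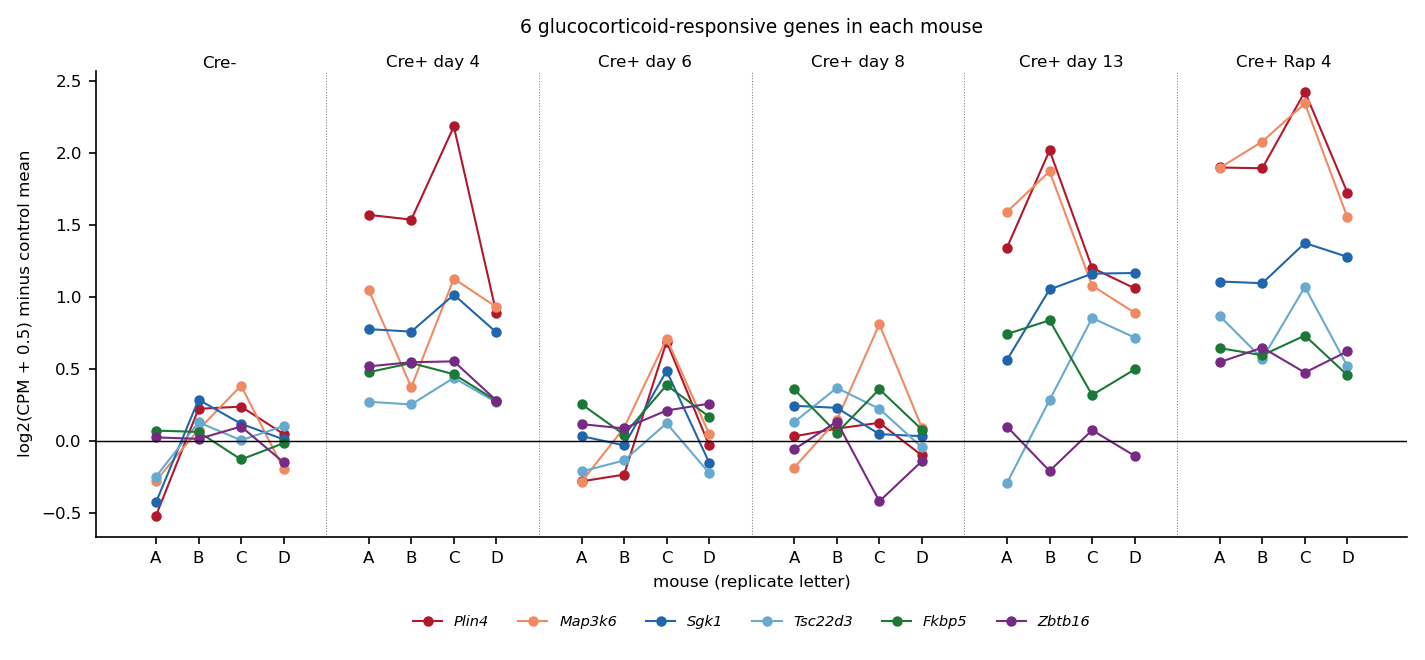
Level of 6 target genes in each of the 24 mice, as log2(CPM + 0.5) minus the mean of the 4 controls, with lines joining the mice of a group. In the rapamycin group mouse C is highest for *Plin4*, *Map3k6*, *Sgk1*, *Tsc22d3* and *Fkbp5*, and *Zbtb16* stays near 0 in the day 13 mice.

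Over the 24 mice and 27109 other genes, the levels most like those of *Plin4* were of *Gm44850* (Pearson r = 0.95, Spearman rho = 0.90) and *Sgk1* (0.93, 0.89). *Map3k6* was most like *Gm44850* (0.92, 0.87) and *Plin4* (0.90, 0.91), and *Sgk1* most like *Gm19439* (0.93, 0.92) and *Plin4* (0.93, 0.89). For *Map3k6* the rapamycin mice by which it was picked are among the 24. *Errfi1* was most like *Dusp5* (0.97, 0.85), which encodes a phosphatase of MAP kinases, and *Aff1* (0.93, 0.89). For *Tsc22d3* these were *Cdc37l1* (0.87, 0.86) and *Arrdc2* (0.85, 0.85), for *Fkbp5* *Fam83d* (0.87, 0.86) and *Itgad* (0.86, 0.82), and for *Zbtb16* *Safb2* (0.88, 0.86) and *Foxk1* (0.87, 0.90). *Nr3c1* was most like *St6gal2* (0.89, 0.87) and *Gabrb2* (0.89, 0.79), and *Nr3c2* most like *Stim2* (0.72, 0.64) and *Olfr538* (0.72, 0.60). These are descriptions of the mice at hand.

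A list of 30 other genes known as receptor targets was measured in the same way. This list too was chosen with earlier results of these data known. On day 4, 3 of the 30 were called higher, against 0.340% of all genes, and none lower. The 3 were *Hif3a*, a member of the HIF family (1.66 ± 0.19, adjusted p = 0.00113), the sulfotransferase *Sult1a1* (0.70 ± 0.15, 0.0250) and the lipid transporter *Mfsd2a* (0.51 ± 0.08, 0.00689). The median log2 fold change of the list was 0.25, and 24 of the 30 were above 0, beside a median of -0.005 over all genes. Its median was -0.03 on day 6 and -0.11 on day 8, beside -0.02 and -0.03 over all genes. On day 6 2 were called higher (*Ddit4*, 0.55 ± 0.09, 0.00185, and *Cebpd*, 0.53 ± 0.09, 0.00316), and on day 8 3 higher and 2 lower, among them *Cdkn1a* (1.603 ± 0.42, 0.0302) and *Rasd1* (-0.76 ± 0.12, 0.00274). Of all genes, 1.32% were called in either direction on day 6 and 3.99% on day 8.

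*Hif3a* was also low on day 6. Its control mice were at 2.95, 5.24, 5.44 and 5.83 CPM, day 4 mice at 14.3, 14.99, 20.1 and 12.1 and day 6 mice at 3.92, 2.92, 7.18 and 3.62. Rapamycin mice, at 22.1, 21.9, 25.7 and 19.7, stood above all of these except for an overlap with day 4 mouse C, and day 13 mice, at 5.01, 8.66, 12.3 and 13.0, overlapped the controls. It fell by 1.81 ± 0.22 on the log2 scale from day 4 to day 6 (adjusted p = 0.000561).

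On day 13, 15 of the 30 were called higher and 1 lower, against 8.40% and 8.06% of all genes. The list median was 0.68 beside -0.04 over all genes. The largest rises were of *Cdkn1a*, a cell cycle inhibitor that is also a p53 target (3.70 ± 0.67, adjusted p = 0.00459), and the metallothioneins *Mt2* (2.39 ± 0.52, 0.00984) and *Mt1* (1.81 ± 0.32, 0.00433). Mice A and B carried most of these rises, with *Cdkn1a* at 29.3, 16.9, 3.04 and 4.34 CPM and *Mt2* at 43.3, 45.7, 8.32 and 10.7 CPM in mice A to D. The controls were at 0.826 to 1.27 and 4.59 to 6.21 CPM. Mice A and B also had the deepest libraries of day 13, at 69971957 and 126435936 counts against 38423852 and 41101425. They had low *Xist* where mice C and D had high *Xist*. Depth and *Xist* thus split this group alike and cannot be told apart in it, and the part of depth was not tested. Under rapamycin 10 were called higher and none lower, against 0.372% and 1.04% of all genes, with a median of 0.30 beside 0.01 over all genes. The 10 were led by *Hif3a* (2.20 ± 0.16, adjusted p = 2.66e-05), *Cdkn1a* (1.70 ± 0.17, 0.000381) and *Lcn2* (1.32 ± 0.30, 0.0314). *Lcn2* had few reads, at 14 to 20 counts per control mouse and 20 to 42 per rapamycin mouse. It did not pass the 6-group F test (adjusted p = 0.134). Counts on this list changed with the fit: with all 24 mice in 1 fit, 1 was called higher on day 4 and 6 under rapamycin. The day 4 count was also 1 with *Xist* as a covariate and without control mouse A or day 4 mouse C, and reached 5 without control mouse C or day 4 mouse A and 6 without day 4 mouse D.

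The direct comparison of rapamycin with day 13 split the list. Of the 30, 7 were called higher, among them *Hif3a* (1.21 ± 0.26, adjusted p = 0.00691), and 10 lower, beside 9.94% and 11.2% of all genes, led by *Cdkn1a* (-2.01 ± 0.60, 0.0296), *Mt2* (-2.01 ± 0.50, 0.0144) and *Nedd9* (-1.79 ± 0.46, 0.0164). With 1 mouse left out, 3 to 8 were called higher and 6 to 10 lower. The count of 7 fell to 3 or 4 without day 13 mouse A or B or any 1 rapamycin mouse, and the count of 10 fell to 6 without rapamycin mouse D.

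**Figure D4:**
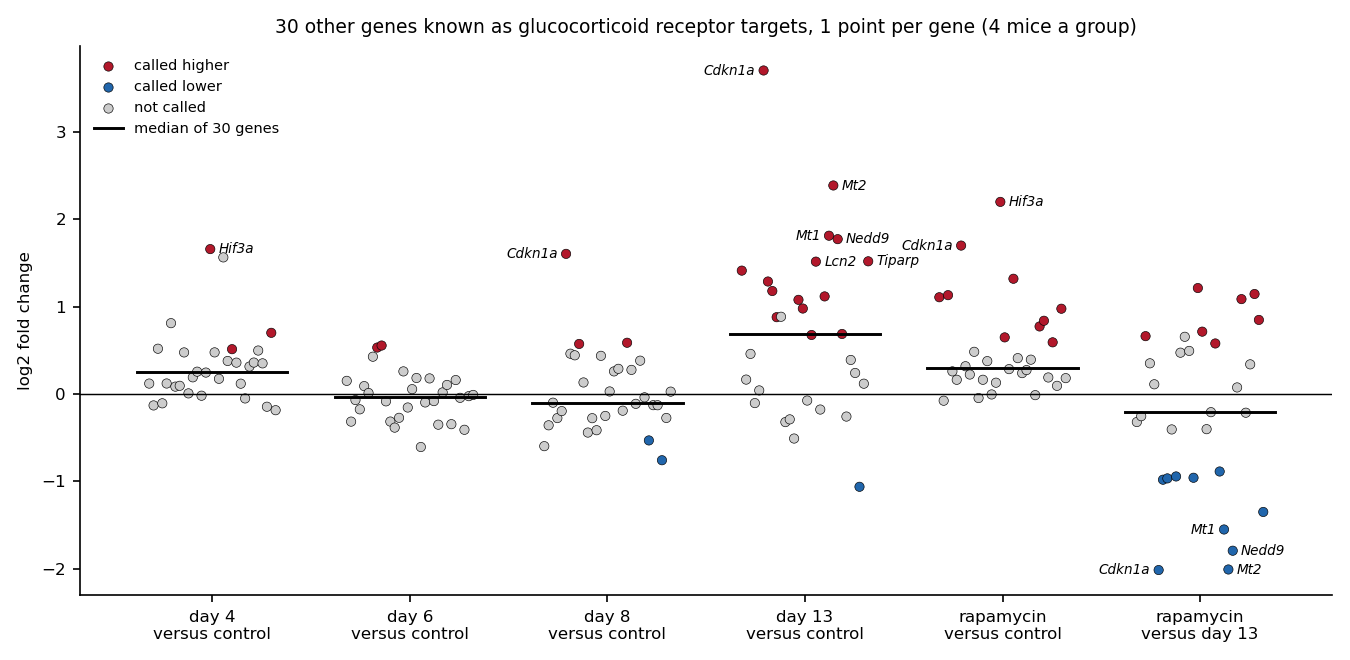
Log2 fold change of 30 other receptor target genes in 6 comparisons of 4 mice against 4, 1 point per gene, red where called higher, blue where called lower and grey where not called, with the list median as a line. The median is 0.25 on day 4, 0.68 on day 13 and 0.30 under rapamycin, and -0.21 for rapamycin against day 13.

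Of 20 genes for chaperones, coactivators, corepressors and steroid-converting enzymes of the receptor, none was called on day 4, 6 or 8 or under rapamycin. *Hspa4* (0.68 ± 0.09, adjusted p = 0.00125) and *Hspa8* (0.59 ± 0.07, 0.00105), both chaperone genes of the HSP70 family, were the 2 of the 20 called higher on day 13, a share near the 8.40% of all genes. Against day 13, rapamycin mice had 6 of the 20 lower, where 11.2% of all genes were, led by *Hspa8* (-0.75 ± 0.09, 0.000554). Of 14 relatives of the 9 genes, none was called on day 4, 6 or 8. Under rapamycin, where *Sgk1* and *Plin4* rose, *Sgk2* (-0.95 ± 0.21, 0.0298) and *Plin2* (-0.61 ± 0.15, 0.0442) were lower. They were 2 of the 13 relatives tested, against 1.04% of all genes. On day 13, 1 relative was called higher and 1 lower, beside 8.40% and 8.06% of all genes. Between rapamycin and day 13, 2 relatives were called higher and 3 lower, beside 9.94% and 11.2%.

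Glucocorticoid levels and several receptor targets follow the day, so 12 other clock genes were measured beside them. None was called on day 4, on day 6 or under rapamycin. On day 8 and day 13 *Per3* was lower (-0.84 ± 0.20, adjusted p = 0.0178, and -1.56 ± 0.42, 0.0230) and *Cry1* and *Ciart* were higher. Of all genes, 3.99% were called on day 8, and 8.40% were called higher and 8.06% lower on day 13. The summed level of the clock genes was 1091 to 1130.4 CPM in controls, 1093 to 1228 on day 4 and 1171 to 1269.9 under rapamycin. The rapamycin mice did not overlap the controls (p = 0.0286, two-sided exact permutation test), but the adjusted p was 0.130 over 50 comparisons. Of 6 immediate early genes, *Npas4* (-0.74 ± 0.18, 0.0423) and *Arc* (-0.51 ± 0.11, 0.0259) were lower on day 4, *Npas4* (-1.07 ± 0.17, 0.00166) and *Fosb* (-0.67 ± 0.19, 0.0367) on day 6, and *Npas4* (-0.82 ± 0.18, 0.0266) and *Arc* (-0.56 ± 0.12, 0.0221) under rapamycin. Of all genes, 4.16% passed the adjusted p alone on day 4, 1.32% were called on day 6 and 1.04% were called lower under rapamycin. On day 13, 3 of the 6 were called higher, against 8.40% of all genes, among them *Fos* (3.89 ± 0.93, 0.0145), with overlapping mice. Against day 13, rapamycin mice had 5 of the 6 lower, where 11.2% of all genes were. The summed immediate early level was lower in every day 4 mouse (106 to 145 CPM) than in every control (154 to 202), with the same p of 0.0286 and adjusted p of 0.130 in the permutation test. The part of these genes in the target values was not tested.

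The summed levels of markers of some other cell types were lower than in the controls under rapamycin and on day 6. All markers of the 8 cell type lists were above 0 in every group. The sum of 6 endothelial markers was 202 to 225 CPM in controls and 174 to 185 under rapamycin, of 5 mural markers 171 to 189.8 and 144 to 158, of 5 microglial markers 191 to 228 and 140.0 to 162, and of 5 astrocyte markers 1252 to 1362 and 1137 to 1237. For these 4 lists every rapamycin mouse was lower than every control, and every day 6 mouse was also lower than every control. For the astrocyte list this held for every day 8 mouse too. Each of these differences had p = 0.0286 (exact permutation test, two-sided), the smallest that 4 against 4 mice allow, and an adjusted p of 0.130 over 50 comparisons. The part of these cell types in the target values was not tested. Neuron, hippocampal neuron and oligodendrocyte sums overlapped the controls. Choroid plexus markers ranged from 59.1 to 1685 CPM among the controls alone. On day 4 they were at 693, 715, 43.6 and 1050.2 CPM in mice A to D, and their part in the target values was not tested.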

How the data were processed

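RNA was measured in the hippocampus of 24 mice by stranded total RNA sequencing after removal of ribosomal RNA. The authors trimmed reads with cutadapt (1.16.5), aligned them to GRCm38/mm10 with STAR (2.7.2b) and deposited raw counts per GENCODE gene from featureCounts (1.6.4). The strand setting and the treatment of reads with several matches are not given in the sources used here, so overlapping genes are uncertain. Names and coordinates came from GENCODE M21.

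Each comparison of 4 mice with 4 was fitted with edgeR (4.0.16, R 4.3.3): filterByExpr with a minimum count of 10, TMM factors, the quasi-likelihood test and Benjamini-Hochberg adjustment over all genes tested, with thresholds for a call of 0.05 on the adjusted p and 0.5 on the size of the log2 fold change. A 6-group F test used all 24 mice. Levels are CPM, and correlations used log2(CPM + 0.5). DESeq2 (1.42.0), DESeq2 size factors, no filter, no fold minimum, a fit of all mice, *Xist* as a covariate, a replicate block, the animal number series and each mouse left out were alternatives. The comparisons of day 6 with day 4, day 13 with day 8 and rapamycin with day 4, and offsets for GC content, were added after the data were seen. Of these fits, edgeR and DESeq2 for day 8 against control and the F test were tested on simulated data.

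The 9 genes and all lists were chosen with earlier results of these data known. Besides the 9 genes, the text names up to 3 called genes of largest change per list and comparison, the 2 genes most like each of the 9, and *Tsc1*. For cell type lists only sums are given. *Hif3a* in all groups was added after its values were seen.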

Additional observations from a re-analysis of the deposited data

Results flagged for a closer look

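In 4 of 54 sets of 4 mice, 1 mouse stood apart from the other 3 beyond Dixon's 95% critical value for 4 samples, which chance exceeds in about 1 in 20 sets. On day 4 these were mouse C for *Sgk1* (155 CPM, ratio 0.921) and *Tsc22d3* (66.2 CPM, 0.905), both high, and mouse D for *Zbtb16* (139 CPM, 0.862), low. On day 13 it was mouse C for *Nr3c2* (293 CPM, 0.860), low. All 4 day 4 mice were above the controls for each of the 3 targets.

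Groups of *Tsc1-Cre+* mice differed from each other in a direct test for 4 genes. From day 4 to day 6 the log2 differences were -0.74 for *Sgk1* (edgeR adjusted p = 0.00171) and -1.56 for *Plin4* (0.00286), where 0.357% of all genes were called lower. Between rapamycin and day 13 they were 0.61 for *Zbtb16* (0.00134) and -0.77 for *Errfi1* (0.0197). There 9.94% of all genes were called higher and 11.2% lower, so these calls were near the share of all genes. The *Errfi1* call was lost without day 13 mouse A or without rapamycin mouse A or D.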

How the results depend on the processing

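No result changed direction while called. Of the counts of called genes among the 9 under an alternative, 128 stayed within 1.5 times the reported count, 14 were higher and 3 lower. Without the fold minimum the counts were 8 on day 4, 1 on day 6, 1 on day 8, 5 for day 6 against day 4 and 2 for rapamycin against day 4. For day 13 against day 8, DESeq2 and edgeR on all 24 mice each called 4 of the 9, where edgeR on the 8 mice called 0. With 1 mouse left out, counts ranged from 2 to 4 on day 4, from 1 to 3 for rapamycin against day 13, from 2 to 4 for day 6 against day 4, from 0 to 2 for day 13 against day 8 and from 0 to 2 for rapamycin against day 4. *Nr3c2* lost its 6-group difference in 5 of the leave-one-out fits (adjusted p up to 0.0746). *Plin4* against day 13 and *Map3k6* on day 4 lay near the threshold, as given with their values. Counts of the 30 other targets stayed within 1.5 times in 232 cases, were higher in 12 and lower in 28.

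Replicate letters were shared across groups but mice with the same letter did not deviate together (r from -0.39 to 0.19), so they are not pairs. With the letter as a replicate block the counts were 3 on day 4, 0 on day 6, 0 on day 8, 6 on day 13, 5 under rapamycin and 2 for rapamycin against day 13, each as without the block.

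Depth limits *Map3k6* most, with a median of 94.5 counts per mouse. There were 4 mice per group and no vehicle group, controls were taken on day 8 only, and group and animal cohort cannot be told apart for most comparisons.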
